A study of Rattus norvegicus with 10 samples.

Results

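The opioid receptors and the precursors of the endogenous opioid peptides were examined in the lumbar spinal cord of morphine-tolerant rats. The members were the mRNA probes on the array whose RefSeq accession belongs to Oprm1, Oprd1, Oprk1, Oprl1, Penk, Pdyn, Pnoc or Pomc, and each accession of Oprm1 was kept apart. This gave 12 probes for the 8 genes, of 15323 mRNA probes and 24684 probes in all. Each of the 12 probes was represented by 1 spot per array. The rats were male Sprague Dawley animals of 240 to 260 g. The morphine tolerance group (MT, rats 1 to 5) received 10 μg of morphine in 10 μl by intrathecal injection, 2 times a day for 7 days, and the normal saline group (NS, rats 6 to 10) received 10 μl of saline on the same schedule. Both groups thus carried the intrathecal injections, and the lumbar enlargements were collected on the day after this course, 1 hour after a last morning injection. One array was hybridized per rat, without pooling.

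Opioid receptors are G protein-coupled receptors that act through Gi and Go proteins, which lower cyclic AMP, close presynaptic calcium channels and open inwardly rectifying potassium channels. In the spinal cord they reduce transmitter release from nociceptive afferents and inhibit dorsal horn neurons, and the mu receptor encoded by Oprm1 is the main target of morphine. Their peptide ligands are cut from larger precursors, with enkephalins coming from Penk, dynorphins from Pdyn, nociceptin from Pnoc and beta-endorphin from Pomc.

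The RefSeq annotation gives Oprm1 more than 1 start, and no file used here ties the accessions on the array to one or the other. On GRCr8, Oprm1 lies on chromosome 1 from 45565371 to 45818722, and its 2 annotated starts are 20612 bases apart. The 250 bases before each start are printed with those of Pdyn, since the Oprm1 accessions are kept apart below and since Pdyn shows a start region with a TATAAA match. Capitals mark a TATAAA match on the strand of the gene.
Oprm1, chr1:45565121-45565370, plus strand: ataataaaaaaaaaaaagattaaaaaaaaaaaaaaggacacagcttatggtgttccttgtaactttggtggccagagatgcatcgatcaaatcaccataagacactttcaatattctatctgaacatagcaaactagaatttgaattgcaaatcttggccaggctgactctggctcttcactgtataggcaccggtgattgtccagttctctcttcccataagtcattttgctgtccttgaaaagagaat
Oprm1, chr1:45585733-45585982, plus strand: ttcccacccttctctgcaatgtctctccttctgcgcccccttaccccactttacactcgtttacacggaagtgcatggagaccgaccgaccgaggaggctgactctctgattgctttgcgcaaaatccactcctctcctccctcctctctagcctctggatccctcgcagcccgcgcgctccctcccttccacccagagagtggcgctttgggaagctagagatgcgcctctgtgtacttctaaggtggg
Pdyn, chr3:137366504-137366753, minus strand: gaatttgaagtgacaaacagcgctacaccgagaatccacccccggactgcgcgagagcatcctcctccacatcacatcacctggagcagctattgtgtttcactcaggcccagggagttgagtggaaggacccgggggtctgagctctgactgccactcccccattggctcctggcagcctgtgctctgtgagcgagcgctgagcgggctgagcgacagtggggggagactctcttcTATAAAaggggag
The upstream Oprm1 start follows a region with 36.4% G and C, and the downstream start one with 58.4%. Neither held TATAAA, whereas the Pdyn region held 1 match, 13 bases before the start. The Pomc region also held 1 match, and the Oprd1 region, with 79.6% G and C, held none. Over all 33469 regions of this length, 8.06% held TATAAA on the gene's strand. The CRE core TGACG, searched on both strands, was in none of the 5 regions of these 4 genes and in 18.2% of all regions. The GC box GGGCGG, also on both strands, had 4 matches in Oprd1 and 1 in Pomc, and was in 30.5% of all regions. These matches describe the letters alone.

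Some arrays stood apart before any gene was considered. Arrays with the same scan time were taken as 1 slide, so that slide 1 carried only MT rats (1, 3, 4, 5), slide 3 only NS rats (8, 9), and slide 2 both (MT rat 2, NS rats 6, 7, 10). The share of spots well above background was 58.6% to 63.8% on slide 3 and 77.4% to 83.9% on the 8 other arrays. Slide and group could therefore be told apart on slide 2 only, so a fit with the slide as a fixed block rests on 1 MT rat (rat 2). In whole tissue, fewer cells of a type and less RNA per cell cannot be told apart either. All 7 measured neuron markers and all 5 oligodendrocyte markers were well above background on all 10 arrays, so the tissue carried the markers of spinal cord.

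None of the opioid receptor or peptide mRNAs passed the test between the MT and NS groups. Of the 12 probes, 9 passed the filter, which asked for a spot well above background on at least 5 arrays, and these were tested in limma over 20286 RNAs. The number with an adjusted p below 0.05 was 0 of 9, with 0 at an unadjusted P below 0.05, and 0 met the study's criteria of a fold above 1.5 with a P below 0.05. Over all RNAs tested, these shares were 0.197%, 16.4% and 2.74%. The study words its fold criterion as a log2 value. It was read here on the linear scale of the folds the study lists, with the P from limma. By fold alone, 0 of the 9 exceeded 1.5, against 5.7% of all RNAs. Normalized levels were higher in the MT group for 4 of the 9 and lower for 5. The median size of the log2 fold change was 0.12 for the 9 mRNAs and 0.15 for all RNAs. For 0 of the 9 did the groups lie entirely apart, against 5.64% of all RNAs.

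**Figure D1:**
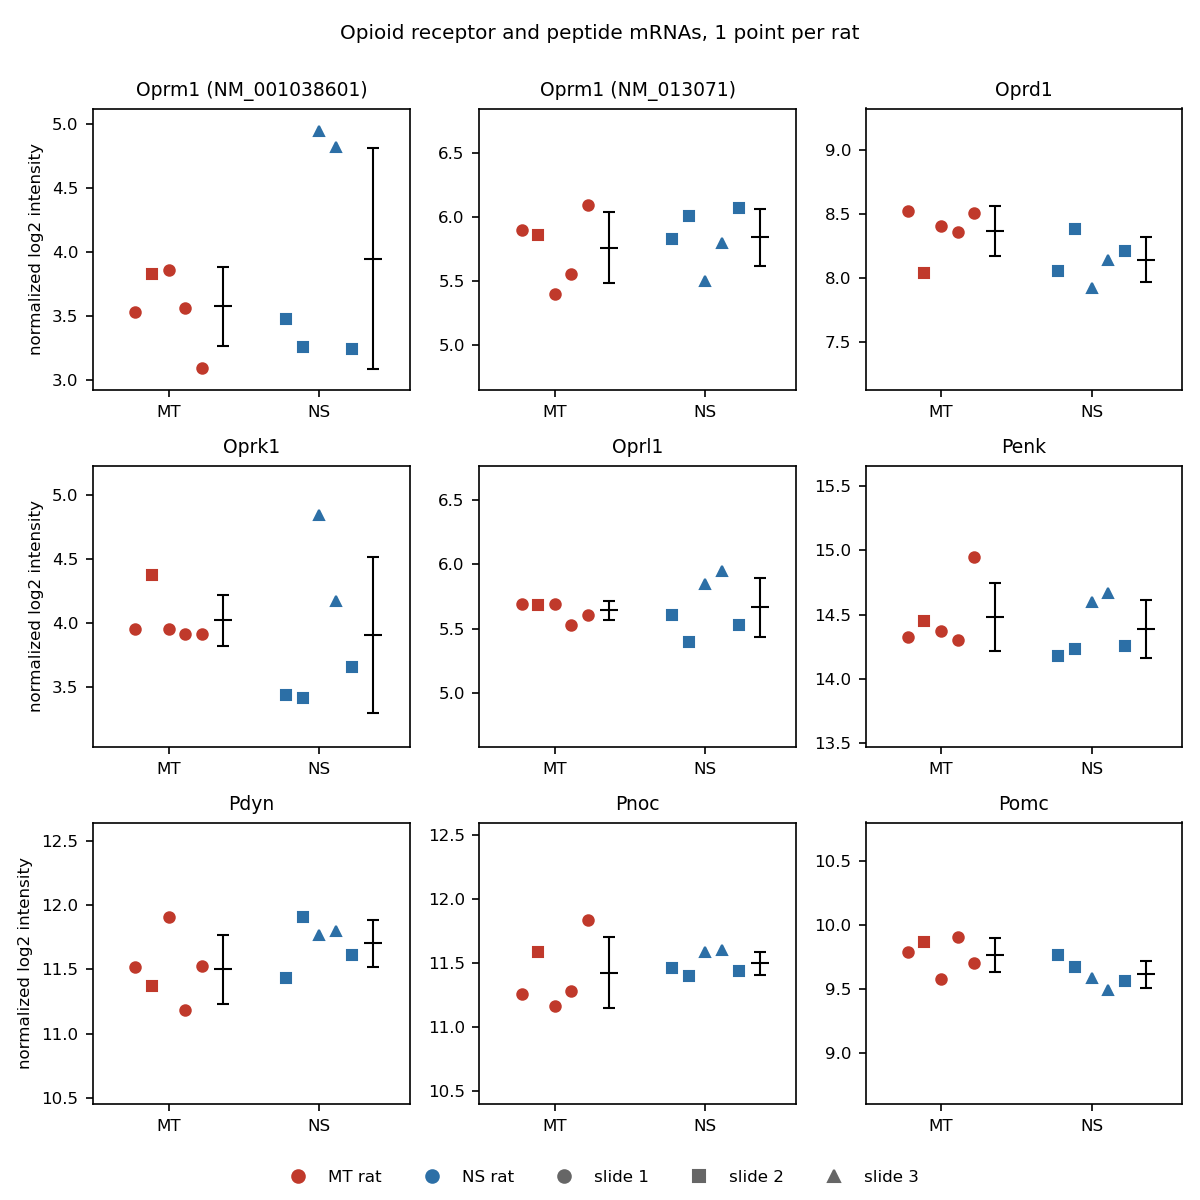
Normalized log2 intensity of the 9 mRNAs that passed the filter, with 1 point per rat, MT in red and NS in blue, the shape of a point giving its slide and the bars the mean ± SD of each group. All panels span the same range of log2 units, and the groups overlap in each of them, with the slide 3 points at the top of the NS group for Oprk1, Oprl1, Penk, Pnoc and the dimmer Oprm1 transcript.

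The levels of some cell type markers lay apart between the groups beside these values. Of 7 measured neuron markers 6 were higher in MT rats (median log2 difference 0.20) and 3 had an unadjusted P below 0.05, and their mean normalized log2 intensity per rat, 11.50 to 11.66 with MT and 11.19 to 11.45 with NS, did not overlap. All 4 motor neuron markers were higher (median 0.29), with 0 at that P. Isl1 among them was well above background on 5 MT and 3 NS arrays. Of 9 dorsal horn markers 4 were higher and 5 lower (median -0.13, 2 at that P), and of 4 dorsal root ganglion markers 2 and 2 (median 0.02, 0 at that P). In the ganglion list, Scn10a, which was higher, was well above background on 5 MT and 3 NS arrays. Scn11a, which was lower, was so on 4 MT and 2 NS arrays. All 5 microglial markers were lower (median -0.34, 4 at that P), at 11.89 to 12.42 against 12.37 to 12.80. Of 4 astrocyte markers 3 were lower (median -0.17, 2 at that P), at 14.63 to 14.75 against 14.76 to 14.90. Of 4 neutrophil markers past the filter 3 were higher and Lcn2 was at -0.24 (median 0.60, 2 at that P), with means of 7.00 to 7.46 against 6.36 to 6.71 and with Mmp8 well above background on 0 of 10 arrays. One of the higher ones, Ngp, was well above background on 4 MT arrays and 1 NS array. It thus passed the filter mainly through the group where it was higher, and it enters this median and these means. The medians were -0.01 for B and T cell (4 fitted, since Cd3g had no value in the MT group, 1 at that P), -0.04 for oligodendrocyte (1 at that P) and 0.22 for meningeal fibroblast markers (0 at that P). Over all RNAs tested, 16.4% had an unadjusted P below 0.05 in limma, and for 5.64%, each taken singly, the groups did not overlap. No marker had an adjusted p below 0.05 (0 in each list), and the part of these cells in the values of the opioid genes was not tested.

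The slide moved these medians too. With the slide as a fixed block they were 0.17 for neuron, 0.50 for motor neuron, -0.63 for microglial, -0.11 for astrocyte, -0.10 for oligodendrocyte and 0.40 for meningeal fibroblast markers, each with the sign it had over all 10 arrays. The neutrophil median was 0.27 with the block, where Ngp turned to -0.42, and 0.54 without slide 3. The dorsal horn median turned to 0.20 with the block and was -0.0088 without slide 3. For B and T cell markers it was -0.51 with the block and turned to 0.18 without slide 3, and for dorsal root ganglion markers it was 0.05 and turned to -0.12.

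Among the receptors, the mu receptor was measured on all arrays through 1 of its 5 accessions. For NM_013071 the normalized log2 intensities of MT rats 1 to 5 were 5.90, 5.86, 5.40, 5.55 and 6.09, and those of NS rats 6 to 10 were 5.83, 6.01, 5.50, 5.80 and 6.07. Both groups covered nearly the same range. The MT mean was 5.76 ± 0.28 and the NS mean 5.84 ± 0.22 (SD, n = 5 each, as for the means below). The log2 fold change, MT minus NS, was -0.08 (standard error, SE, 0.15, 95% confidence interval -0.42 to 0.26, adjusted p in limma = 0.817). In linear terms the interval ran from 1.34-fold lower to 1.20-fold higher in MT rats.

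The other accessions of Oprm1 gave little or no signal. NM_001038597, NM_001038599 and NM_001038600 were well above background on 0 of 10 arrays, with spot intensities before normalization of 1.74 to 3.09, 2.00 to 7.44 and 1.85 to 13.3. Both groups were thus not well above background for these 3, and no fold is given. The highest of them was the NM_001038600 spot of NS rat 6, which at 13.3 was itself not well above background.

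NM_001038601 exceeded background, by the flag of the software, on 4 MT and 2 NS arrays. In MT rats 1 to 5 the normalized log2 intensities were 3.53, 3.83, 3.86, 3.56 and 3.09 and in NS rats 6 to 10 3.47, 3.25, 4.95, 4.82 and 3.24. The 2 high NS values were those of slide 3, and the other NS rats lay within the MT range. On slide 3 the spot intensities before normalization were 14.0 and 8.81, the first within and the second below the 12.8 to 17.6 of NS rats 6, 7 and 10. MT (3.58 ± 0.31) minus NS (3.95 ± 0.86), the log2 difference came to -0.37 (SE 0.37, 95% confidence interval -1.20 to 0.45, adjusted p in limma = 0.636). Without slide 3 the direction turned, at 0.25, and with the slide as a fixed block it was 0.50. A random block gave -0.047 and scaling by the 75th percentile -0.018.

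**Figure D2:**
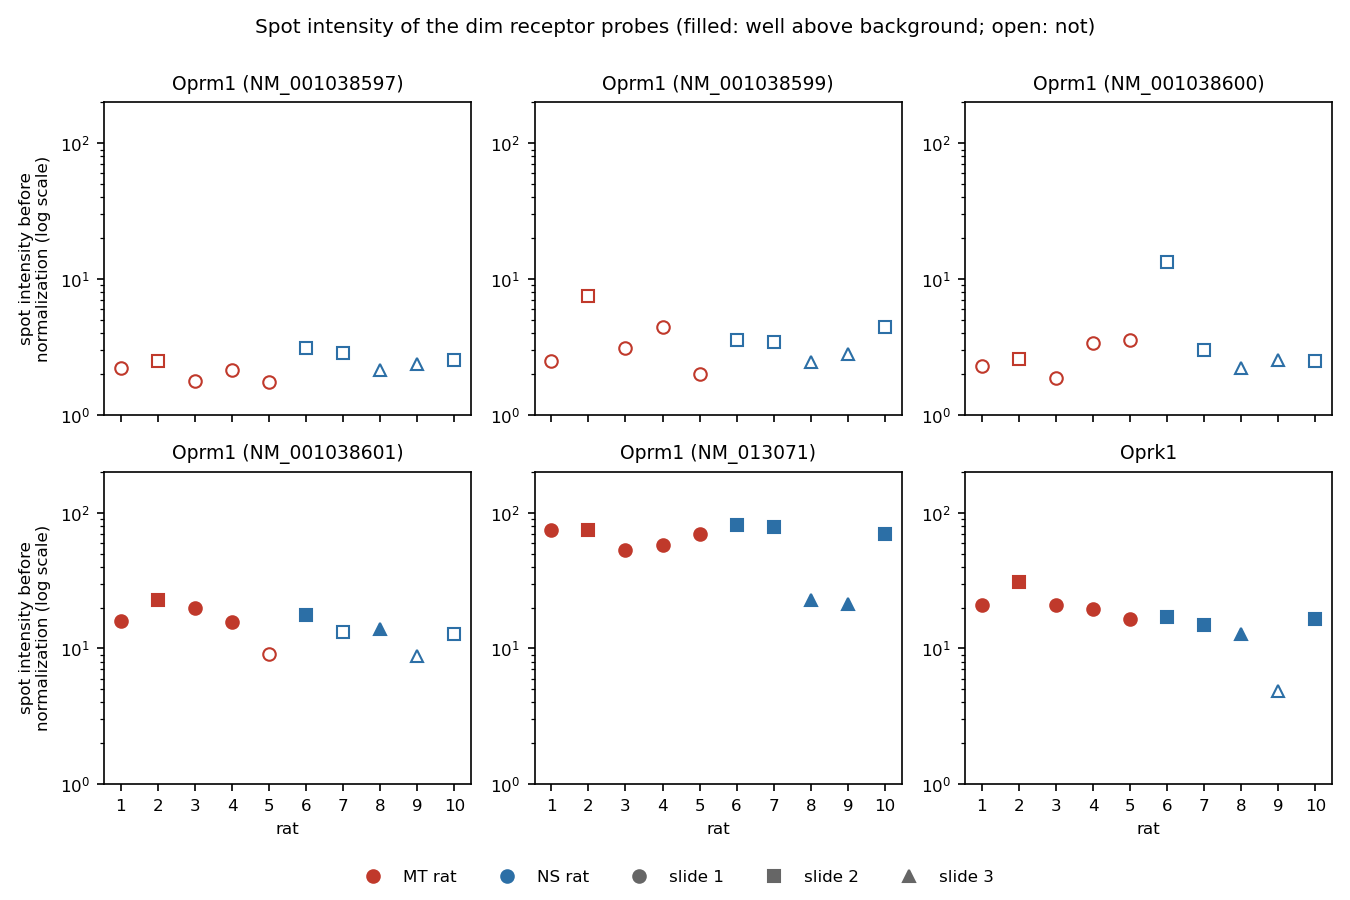
Spot intensity before normalization, on a log axis, for the 5 Oprm1 accessions and Oprk1 in rats 1 to 10, MT in red and NS in blue, with filled points well above background, open points not, and the shape giving the slide. The 3 accessions of the top row are open on every array, and the slide 3 arrays (NS rats 8 and 9) have the lowest values for NM_013071 and Oprk1.

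A non-coding record of the same gene, NR_027877, falls outside the rule and passed the background flag on 5 MT and 3 NS arrays. MT minus NS, its log2 difference was -0.37 (SE 0.27, limma adjusted p = 0.516), with the slide 3 arrays at 4.31 and 4.61 and the 8 other arrays between 3.16 and 3.47. It thus shared the pattern of NM_001038601, in which the NS arrays of slide 3 alone lay above the rest.

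Oprd1, on chromosome 5 of GRCr8 from 149590244 to 149624999, encodes the delta receptor, which binds enkephalins. MT rats 1 to 5 had normalized log2 intensities of 8.52, 8.04, 8.40, 8.36 and 8.50, and NS rats 6 to 10 of 8.05, 8.38, 7.92, 8.14 and 8.21. Of the MT rats, 3 lay above every NS rat and rat 2 lay among the lowest values. The difference between the MT (8.36 ± 0.19) and NS means (8.14 ± 0.17) was 0.22 (SE 0.12, 95% confidence interval -0.03 to 0.48, adjusted p in limma = 0.364, two-sided exact permutation p = 0.103). MT rat 2, the only MT array that shared a slide with NS arrays, lay at 8.04 and below NS rats 6, 7 and 10 (8.05 to 8.38). With the slide as a fixed block the log2 fold change was -0.18, and without MT rat 2 it was 0.30.

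Oprk1, on chromosome 5 from 18657866 to 18675671, encodes the kappa receptor, the receptor of dynorphins. Its value, like that of NM_001038601, moved with the slide 3 arrays. Normalized log2 intensities read 3.95, 4.37, 3.95, 3.92 and 3.91 for MT rats 1 to 5 and 3.44, 3.41, 4.85, 4.17 and 3.66 for NS rats 6 to 10. NS rats 6, 7 and 10 lay below every MT rat, while NS rat 8 lay above all of them. Before normalization, the slide 3 spots were the dimmest, at 12.7 and 4.83, against 14.9 to 17.0 in NS rats 6, 7 and 10 and 16.5 to 31.0 in the MT rats. The spot of NS rat 9 was not well above background. Over all 10 arrays, with means of 4.02 ± 0.20 for MT and 3.90 ± 0.61 for NS, the log2 fold change was 0.12 (SE 0.26, 95% confidence interval -0.47 to 0.70, adjusted p in limma = 0.847).

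Without the arrays of slide 3, an alternative chosen after the data were seen, the log2 fold change of Oprk1 was 0.52 (SE 0.12, 95% confidence interval 0.23 to 0.80, adjusted p in limma = 0.179). An unadjusted P below 0.05 was reached by 18.3% of all RNAs in that fit and by 1 of the 9 mRNAs. On slide 2, NS rats 6, 7 and 10 (3.41 to 3.66) were below MT rat 2 (4.37), which gave 0.87 with the slide as a fixed block (adjusted p = 0.790). With that block Oprk1 met the study's criteria, as did 1.66% of all RNAs. Scaling by the 75th percentile in place of quantile normalization, with all 10 arrays, gave 0.50 (adjusted p = 0.270), the deposited table gave 0.31, a random slide block gave 0.42 and normexp background correction gave 0.05. None of these settings brought Oprk1 past the adjusted threshold.

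Oprl1, on chromosome 3 from 189209495 to 189225406, encodes the receptor of nociceptin. In MT rats 1 to 5 the normalized log2 intensities were 5.69, 5.69, 5.69, 5.53 and 5.61 and in NS rats 6 to 10 5.61, 5.40, 5.85, 5.95 and 5.53. The MT rats lay within the NS range, with an SD of 0.07 against 0.23. The log2 difference between the MT mean of 5.64 and the NS mean of 5.67 was -0.03 (SE 0.11, 95% confidence interval -0.27 to 0.22, adjusted p in limma = 0.924). The 2 highest NS values were again those of slide 3, and without them the log2 fold change was 0.13.

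Among the peptide precursors, all 4 mRNAs were well above background on all 10 arrays. Penk, on chromosome 5 from 21981381 to 21987074, encodes proenkephalin. MT rats 1 to 5 had normalized log2 intensities of 14.32, 14.45, 14.37, 14.30 and 14.95, and NS rats 6 to 10 of 14.18, 14.23, 14.60, 14.67 and 14.26. MT rat 5 was the highest of all rats, and the other MT rats lay between the slide 2 and slide 3 arrays of the NS group. Between the MT (14.48 ± 0.27) and NS means (14.39 ± 0.23), the log2 difference was 0.09 (SE 0.15, 95% confidence interval -0.24 to 0.43, adjusted p in limma = 0.778). Without MT rat 5 it was -0.02, and without slide 3 it was 0.26.

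Pdyn, on chromosome 3 from 137354161 to 137366503, encodes prodynorphin, and had the largest difference toward lower values among the mRNAs measured on all arrays. Normalized log2 intensities read 11.52, 11.37, 11.91, 11.18 and 11.52 for MT rats 1 to 5 and 11.44, 11.91, 11.77, 11.80 and 11.61 for NS rats 6 to 10. MT rats 1, 2, 4 and 5 lay below the NS median of 11.77, and MT rat 3 was the highest of all. The log2 fold change between the MT (11.50 ± 0.27) and NS means (11.71 ± 0.18) was -0.20 (SE 0.14, 95% confidence interval -0.52 to 0.11, adjusted p in limma = 0.487; two-sided exact permutation p = 0.206). It was negative in each of the 21 alternatives, from -0.31 without MT rat 3 to -0.13 without MT rat 4, with adjusted p values between 0.276 and 1.00.

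Pnoc, on chromosome 15 from 43800240 to 43827841, encodes the precursor of nociceptin. In MT rats 1 to 5 the normalized log2 intensities were 11.26, 11.59, 11.16, 11.28 and 11.83 and in NS rats 6 to 10 11.46, 11.40, 11.58, 11.60 and 11.44. The MT rats spread to both sides of the NS range, and the 2 highest NS values were those of slide 3. On the log2 scale the MT mean (11.42 ± 0.28) and the NS mean (11.50 ± 0.09) differed by -0.07 (SE 0.13, 95% confidence interval -0.36 to 0.21, adjusted p in limma = 0.798). The sign turned with the slide as a fixed block, at 0.15, and the value was -0.0084 without slide 3.

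Pomc, on chromosome 6 from 32659137 to 32665175, encodes proopiomelanocortin, best known from the pituitary and the hypothalamus. MT rats 1 to 5 had normalized log2 intensities of 9.79, 9.87, 9.58, 9.90 and 9.70, and NS rats 6 to 10 of 9.77, 9.67, 9.59, 9.50 and 9.56. Of the MT rats, 3 lay above every NS rat, and MT rat 3 lay below 3 of the NS rats. The MT (9.77 ± 0.13) and NS means (9.62 ± 0.10) differed by 0.15 (SE 0.08, 95% confidence interval -0.03 to 0.34, adjusted p in limma = 0.391), and the two-sided exact permutation test gave p = 0.0714, against a smallest possible p of 0.00794. It was positive in each of the 21 alternatives, between 0.10 and 0.20, with adjusted p values between 0.233 and 1.00.

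Over all 10 arrays and without a slide block, the intervals gave the following bounds. For 7 of the 9 mRNAs the 95% confidence interval lay within 1.5-fold in either direction, and the exceptions were NM_001038601 of Oprm1, which could be as much as 2.29-fold lower, and Oprk1, which could be as much as 1.62-fold higher. With the slide as a fixed block, where the group difference comes from slide 2 alone, 3 of the 9 intervals lay within that range, those of Oprd1, Oprl1 and Pomc. The upper limit for Oprk1 was then a log2 fold change of 1.39, and without slide 3 it was 0.80. For NM_001038601 the interval ran from -0.07 to 1.08 with the block and from -0.15 to 0.65 without slide 3.

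**Figure D3:**
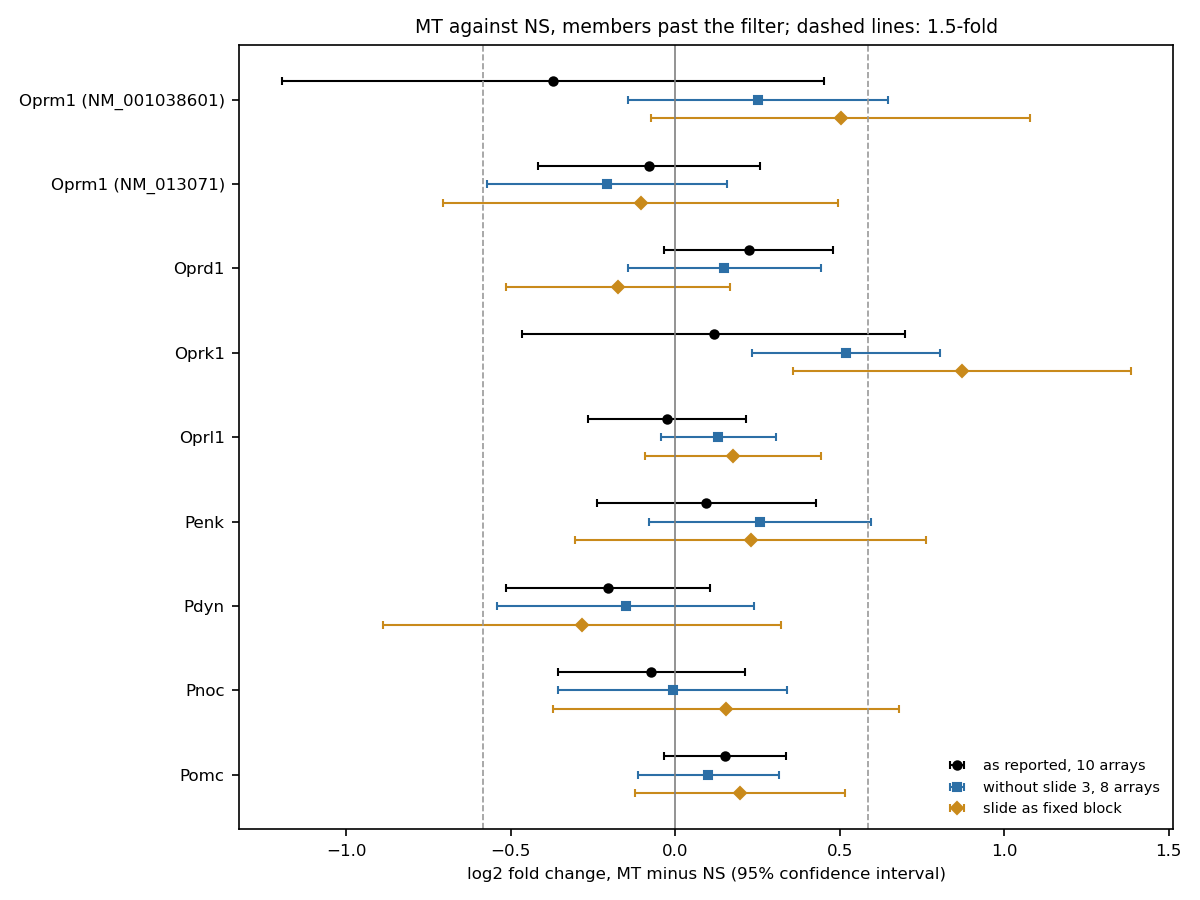
Log2 fold change of MT against NS with its 95% confidence interval for the 9 mRNAs that passed the filter, over all 10 arrays (black circles), without the 2 arrays of slide 3 (blue squares) and with the slide as a fixed block (orange diamonds), with dashed lines at 1.5-fold. The 10-array intervals all include 0, and Oprk1 is the only mRNA whose interval leaves 0 out in the other fits.

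The genes that act before and after these members in the pathway were taken from 3 lists. Of 11 genes of prohormone processing, which cut, store and trim the precursors, 6 were higher and 5 lower, 0 had an adjusted p below 0.05 and 2 an unadjusted one, with a median log2 fold change of 0.0037. Chga, which encodes the granule protein chromogranin A, averaged 14.87 in MT and 14.65 in NS rats on the normalized log2 scale, a difference of 0.22 (SE 0.07, limma adjusted p = 0.174). Its MT rats (14.83 to 14.92) lay above its NS rats (14.52 to 14.78), and the difference was 0.14 without slide 3. Rnpep, the aminopeptidase B that trims basic residues, differed by -0.23 (SE 0.10, limma adjusted p = 0.287), and by -0.09 without slide 3. Chgb differed by 0.09 (SE 0.05, limma adjusted p = 0.396).

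Of 10 peptide-degrading enzymes, 6 were higher and 4 lower, 0 had an adjusted p below 0.05 and 1 an unadjusted one, with a median log2 fold change of 0.09. That one was Anpep, the aminopeptidase N that removes the first residue of enkephalins, at 0.32 (SE 0.10, limma adjusted p = 0.167), with MT rats at 9.14 to 9.43 and NS rats at 8.87 to 9.25. Next by P were the endothelin-converting enzyme Ece1, at 0.19 (adjusted p = 0.434), and Npepps, a cytosolic aminopeptidase, at -0.19 (adjusted p = 0.445). Under the slide block Npepps turned to 0.12.

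Of 11 genes of Gi and Go transduction, 6 were higher and 5 lower, 0 had an adjusted p below 0.05 and 2 an unadjusted one, with a median log2 fold change of 0.0014. Both, 2 of 11, met the study's criteria of fold and P, against 2.74% of all RNAs, both encode subunits of the inwardly rectifying potassium channels that opioid receptors open, and they differed in opposite directions. Kcnj9 was higher by 0.76 log2 units in MT rats (SE 0.17, limma adjusted p = 0.106), with MT rats between 5.89 and 6.22 and NS rats between 4.87 and 5.69. For Kcnj5 the log2 difference, MT minus NS, was -0.73 (SE 0.17, limma adjusted p = 0.106), with MT rats between 7.99 and 8.61 and NS rats between 8.52 and 9.18. Without slide 3 these values were 0.51 and -0.58, neither of them beyond 1.5-fold. With the slide as a fixed block they were 0.44, within 1.5-fold, and -0.80. Kcnj9 was well above background on 5 MT and 4 NS arrays. Gnao1, the alpha subunit of Go, differed by 0.28 (SE 0.17, limma adjusted p = 0.429) and by -0.01 under the block. An unadjusted P below 0.05 was thus reached by 2 of 11, 1 of 10 and 2 of 11 genes of the 3 lists, against 16.4% of all RNAs.

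For each gene, the mRNAs of other genes with the most similar pattern over the 10 arrays were sought among 10392 or more candidates measured on every array. Oprm1 (NM_013071) was most like Gapdhs (Pearson r = 0.88, Spearman rho = 0.85) and Mgmt (r = 0.86), and Oprd1 was most like Lrrc1 (r = 0.91) and Katnal1 (r = 0.90). Oprk1 was most like Uqcrh (r = 0.94) and Cox8b (r = 0.92), and Oprl1 was most like Arpc1a (r = 0.98) and Sord (r = 0.96). For the precursors, the most similar mRNAs were Ttc36 (r = 0.98) and Tpm3 (r = 0.95) for Penk, C1qc (r = 0.96) and Lamp2 (r = 0.96) for Pdyn, Kcne5 (r = 0.96) and Slc27a5 (r = 0.95) for Pnoc, and Map3k8 (r = 0.95) and Calcb (r = 0.94) for Pomc. These are the highest of many correlations over arrays that share 3 slides, and are given as a description. Without slide 3 they ranged from 0.79 (Oprk1 with Cox8b) to 0.98 (Pnoc with Kcne5). Over the 10 arrays, Spearman rho was lowest for Penk with Tpm3, at 0.78, and was 0.89 for Penk with Ttc36.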

How the data were processed

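RNA of the lumbar enlargement was labelled with random primers after removal of rRNA and hybridized to Arraystar rat lncRNA arrays, 1 rat per array. The authors deposited, from Agilent Feature Extraction 11.0.1.1, a background-subtracted linear intensity per spot with quality flags. The authors also deposited a series table of log2 intensities, quantile normalized in GeneSpring GX 12.1, in which 12 of 12 member probes were found.

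From the 42136 non-control spots, intensities were floored at 1 (altering none), converted to log2 and quantile normalized. Flagged outliers were dropped, and spots, then probes of an accession, were averaged. RNAs were kept where over 50% of a probe's spots exceeded background on 5 or more arrays, by the software's flag. MT and NS were compared in limma 3.58.1 (R 4.3.3, with data.table, version 1.17.8) without covariates, adjusting by Benjamini-Hochberg over all RNAs, and single values by two-sided exact permutation. The steps were tested on simulated data. Symbols, positions and start regions are from RefSeq (GRCr8), with start regions for 4 of 8 genes. The arrays were designed on rn4, so positions are of genes, not probes.

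Members, lists and alternatives were chosen with earlier results of these data known. Named genes are all members, the 3 of smallest P in each pathway list and the 2 mRNAs most like each gene. Alternatives were the 75th percentile, normexp (offset 50, on median signals because mean signals were not used here), the series table, filters (none, or all 10 arrays), the methods' Student test, a variance trend, slide blocks (fixed, random), retained outlier spots, each rat left out, and slide 3 left out, the last chosen after seeing the data. P values set the difference between groups against the spread between rats within a group. Both include differences between slides wherever no slide block was fitted, and the number of arrays limits the precision. Plots used matplotlib 3.10.9 (Python 3.11.15).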

Additional observations from a re-analysis of the deposited data

Results flagged for a closer look

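Within a group of 5 rats, 2 of the 24 sets of values held 1 rat far from the others, which chance alone gives for about 1 set in 20. For Oprk1, MT rat 2 lay at a normalized log2 intensity of 4.37 and the other MT rats between 3.91 and 3.95. MT rat 2 was the only MT array of slide 2. For Penk, MT rat 5 lay at 14.95 and the other MT rats between 14.30 and 14.45, and the same rat was also the highest MT rat for Pnoc (11.83) and for Oprm1 NM_013071 (6.09).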

How the results depend on the processing

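Over 21 alternatives, 169 of 187 log2 fold changes of single mRNAs kept their sign, 18 turned, and 0 passed the adjusted threshold. The number of members past that threshold was 0 in each alternative. The number meeting the fold and P criteria was 0 wherever no fixed slide block was fitted. With that block, which rests on 1 MT rat, Oprk1 (0.87) was the only member beyond 1.5-fold. Leaving out each rat gave 0 for both counts. The methods' test also gave 0 for both. Without the filter, all 12 accessions were counted and both counts were 0. The count at an unadjusted P below 0.05 was less stable. In limma, Oprd1 reached that P in 3 of the alternatives, Pomc in 2 and Pdyn in 1. Apart from the fixed slide block, Oprk1 reached it with scaling by the 75th percentile and without slide 3. Over all RNAs, 16.4% reached it in the main fit. The filter on all 10 arrays removed Oprk1 and NM_001038601, so neither has a value there. Scaling by the 75th percentile turned NM_013071 to 0.18 and Oprl1 to 0.17. With normexp, Oprl1 was 0.0059. The fixed slide block turned NM_001038601 to 0.50, Oprd1 to -0.18, Oprl1 to 0.17 and Pnoc to 0.15, and the random block turned Oprl1 to 0.047 and Pnoc to 0.026. Without slide 3, NM_001038601 was 0.25 and Oprl1 0.13. When each rat was left out in turn, the values ran from -0.16 to 0.011 for NM_013071, from -0.0064 to 0.35 for Oprk1, from -0.093 to 0.046 for Oprl1 and from -0.023 to 0.16 for Penk, and without a turn from -0.55 to -0.12 for NM_001038601 and from -0.18 to -0.0072 for Pnoc. The cause of these turns was not tested. Before normalization, the spots of the Oprm1 accessions, Oprk1 and Oprl1 were the dimmest of the members. NM_013071 and Oprl1 were still well above background on all 10 arrays. Members with brighter spots turned as well, namely Oprd1 (144 to 440), Pnoc (1758 to 3793) and Penk (13976 to 31677). The Oprl1 spots (24.3 to 71.6 before normalization) were about as dim as those of NM_013071 (21.1 to 82.0). No paired analysis was possible because the labels give the rats of the 2 groups different numbers.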
